A study of Mus musculus with 6 samples.

Results

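The p53 pathway was followed here through 37 genes of a table of 54715 genes, compared between WT and *Bdh2*-knockout advanced embryonic stem cells (ASCs). The 37 genes were chosen by name, as the gene for p53 itself (*Trp53*), its feedback regulators and well-known targets of the protein, and all were found in the table. They were read in 5 groups by role, with 6 feedback genes, 8 arrest genes, 12 death genes, 4 repair genes and 7 genes of metabolism and other functions. Total RNA and a TruSeq RNA library kit were used for all 6 libraries. ASCs are mouse pluripotent stem cells held between the naive and the primed state. Both genotypes came from the cross of a female 129/sv mouse with a GOF/GFP male mouse, and 3 libraries were sequenced of wild type cells and 3 of cells in which *Bdh2*, a cytosolic dehydrogenase gene linked to iron handling and ketone use, was cut by Cas9 near its start codon. Both were ASC cultures without a labelled drug or damaging treatment. Per the study, knockout cells were transfected with a guide RNA plasmid, selected with puromycin and expanded from single colonies. No such steps are described for the WT cells, so loss of *Bdh2* and this history cannot be told apart here. For later work the study kept 1 knockout clone with a frameshift deletion of both alleles. The labels do not say whether the 3 libraries of a genotype were separate cultures, and the p-values then measure only the spread between these libraries, which may be technical.

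The p53 protein is a transcription factor that is kept low by the ubiquitin ligase MDM2 and its partner MDM4, and that is stabilized when DNA is damaged or growth is disturbed. It binds pairs of a short palindromic DNA motif and switches on genes that stop the cell cycle, start apoptosis, repair DNA or change metabolism, and among its targets are *Mdm2* and other genes that switch it off again. Pluripotent stem cells are known for a high level of p53 and a short G1 phase. Transcript levels do not show the amount or activity of the protein, which was not measured in these libraries.

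The libraries held from 18927748 to 28333541 counts on genes, and 3 counts in them correspond to 0.106 to 0.158 CPM (read counts scaled to a library of fixed size), a limit for counting error only. Levels are given as CPM scaled by the trimmed mean of M-values (TMM). *Bdh2* was at 10.5, 9.56 and 8.27 CPM in WT ASCs and at 5.95, 4.99 and 5.38 CPM in *Bdh2*-knockout ASCs, with log2 fold change -0.79 (SE 0.12, adjusted p = 2.46e-04), so the groups did not overlap and transcript remained in the knockout. The summed level of 12 embryonic stem cell markers was 7572 to 7656 CPM in WT and 7797 to 7912 CPM in knockout libraries, with 7 higher and 1 lower by edgeR (7 and 2 by DESeq2), and none of these markers was at 0. These and the marker counts that follow are to be read against 21.0% of all tested genes called higher and 20.8% lower by edgeR. Markers of other cell types also moved with genotype or library. All 12 primitive endoderm markers were higher in the knockout, where they summed to 897 to 990 CPM against 368 to 408 CPM in WT. The 12 adult hepatocyte markers summed to 448, 273 and 32.9 CPM in WT replicates 1, 2 and 3 and to 24.5, 123 and 14.0 CPM in the knockout replicates, none of them was at 0 throughout, and 9 of the 11 tested were called lower by edgeR and none by DESeq2 (11 at an unadjusted p under 0.05 by edgeR). Of 6 fibroblast markers tested 2 were lower, with sums of 31.9 to 36.1 CPM in WT and 23.9 to 29.2 CPM in the knockout. In bulk RNA fewer cells of a type and less RNA per cell cannot be told apart, and the part of these cell types in the results was not tested beyond a fit with the hepatocyte level as a covariate.

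Across the 37 genes, 15 were higher in *Bdh2*-knockout ASCs, 9 were lower and 13 did not pass the threshold of an adjusted p under 0.05 (edgeR quasi-likelihood test, Benjamini-Hochberg adjustment over 16758 tested genes). Of all tested genes, 41.7% were called, 21.0% higher and 20.8% lower, so the share of members called lower, 24.3%, was near the background, and that called higher was 40.5%. Calls are more frequent among genes with more counts. In a fit of genes with a mean count of at least 50, 6359 of 12718 were called. All members but *Fas* were in that fit, with 15 higher and 9 lower, so the background of 41.7% is low for them. The 37 genes had 0.09 as median log2 fold change, beside -0.01 over all tested genes. The changes were small. The largest was a 1.77-fold rise of *Perp*, so no member was called at 2-fold or more, as 5.29% of all tested genes were, and 15 were called with a change of at least 1.2-fold, as 30.3% of all tested genes were. In 23 of the 37 genes the WT and knockout libraries did not overlap, with 15 higher and 8 lower, where the share over all tested genes was 52.4% in either direction, 26.3% higher and 26.1% lower. The groups differed in their counts. Of the feedback genes 5 rose and 1 fell, of the arrest genes 4 rose and 2 fell, of the death genes 5 rose and 1 fell, and all 4 repair genes fell. Of the genes of metabolism and other functions 1 rose and 1 fell.

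**Figure D1:**
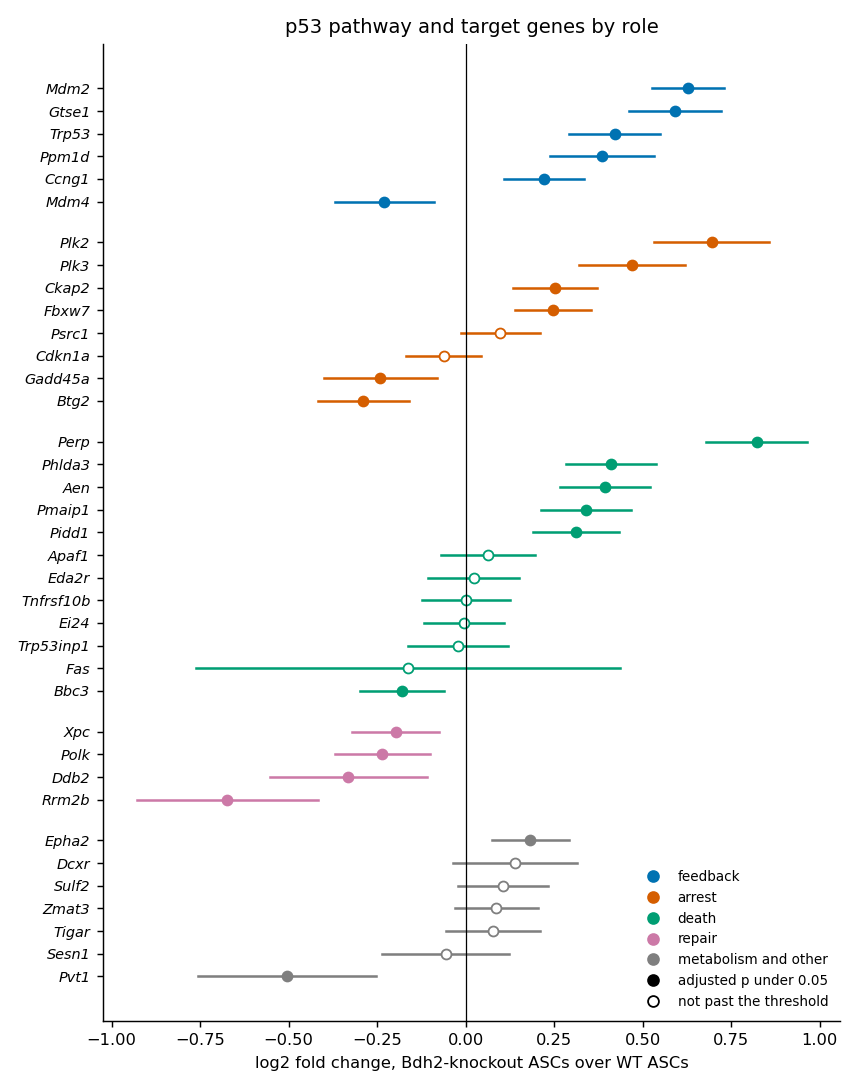
The log2 fold change of each of the 37 genes in *Bdh2*-knockout over WT ASCs is plotted on the horizontal axis, with its 95% confidence interval as a line, and the genes are ordered within their role group. Filled points passed an adjusted p under 0.05 (15 to the right of 0, 9 to the left), and all 4 repair genes lie to the left of 0.

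The p53 motif was looked up in the promoters, since what these genes are expected to share is a site for the protein. Windows of 250 bases before to 50 bases after a transcription start were taken from RefSeq (GRCm38.p6) and were at hand for 28 of the 37 genes. Each was searched for exact matches to the p53 decamer consensus, 10 bases long and the same on both strands. At least 1 match was found in 12 of these 28 genes (42.9%), against 9.55% of 27025 genes with a window and 8.25% of the 11478 tested genes with one. Counted by window, 13 of 40 windows of members (32.5%) held a match, against 8.36% of all windows. The genes were picked as p53 targets, so this share describes the choice. Of the 12 genes with a match, 7 were higher in the knockout, 2 were lower and 3 did not pass the threshold. Of the 16 with a window and no match, 6 were higher, 3 were lower and 7 did not pass. Both sets of counts are to be read against 21.0% of all tested genes called higher and 20.8% lower. The share called among all tested genes with a match was not computed. The matches of the 9 genes that passed the threshold are shown in capitals with 10 bases on each side. They were picked by their call, so the sites shown say nothing of a link between motif and change. Matches of *Ei24* and *Sesn1*, which did not pass, are not printed, and a site of *Cdkn1a* follows below. Positions are for GRCm38.p6, and each sequence is written 5′ to 3′ on the strand of its gene.
*Mdm2*, upstream of the gene, minus strand, chr10:117710925-117710954: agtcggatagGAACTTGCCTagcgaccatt
*Trp53*, upstream of the gene, plus strand, chr11:69580274-69580303: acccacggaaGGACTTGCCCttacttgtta
*Ppm1d*, upstream of the gene, plus strand, chr11:85311112-85311141: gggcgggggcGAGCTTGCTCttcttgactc
*Ccng1*, upstream of the gene, minus strand, chr11:40755452-40755481: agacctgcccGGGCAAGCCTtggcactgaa
*Gtse1*, untranslated exon, plus strand, chr15:85859945-85859974: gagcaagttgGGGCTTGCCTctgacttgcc
*Aen*, untranslated exon, plus strand, chr7:78895927-78895956: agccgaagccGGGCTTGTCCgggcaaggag
*Ckap2*, upstream of the gene, minus strand, chr8:22186003-22186032: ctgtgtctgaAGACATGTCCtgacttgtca
*Gadd45a*, untranslated exon, minus strand, chr6:67037428-67037457: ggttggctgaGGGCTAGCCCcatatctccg
*Polk*, intron, minus strand, chr13:96519399-96519428: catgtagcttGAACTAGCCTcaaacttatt

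A p53 response element proper is a pair of decamers. A pair of exact decamers at most 13 bases apart occurred in 1 member, *Cdkn1a*, and in 0.074% of the genes with a window. A pair of adjacent decamers with at most 2 mismatches occurred in 3 members, *Cdkn1a*, *Ckap2* and *Gtse1*, and in 0.189% of the genes with a window. The 2 longer sites upstream of a gene are printed with the adjacent decamers in capitals, with 1 mismatch to the consensus in *Cdkn1a* and 2 in *Ckap2*. A match is a description of the letters and not a measured binding site, and a window without one says nothing of sites elsewhere in the gene.
*Cdkn1a*, upstream of the gene, plus strand, chr17:29090918-29090957: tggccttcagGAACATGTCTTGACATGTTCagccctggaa
*Ckap2*, upstream of the gene, minus strand, chr8:22185993-22186032: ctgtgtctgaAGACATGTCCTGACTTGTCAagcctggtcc

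The feedback genes moved mostly upward. *Trp53*, *Mdm2*, *Gtse1*, *Ppm1d* and *Ccng1* rose and *Mdm4* fell, and the median over the 6 genes was a log2 fold change of 0.40. The shares were 83.3% higher and 16.7% lower, beside 21.0% and 20.8% of all tested genes. *Trp53* (chromosome 11, 69580359 to 69591873, GRCm38), the gene for p53, was at 325, 301 and 350.0 CPM in WT ASCs and at 415, 459 and 433 CPM in *Bdh2*-knockout ASCs. Every knockout library was above every WT library, and the mean went from 325 ± 24.3 to 436 ± 22.3 CPM (SD, n = 3), or a log2 change of 0.42 (SE 0.06, adjusted p = 1.26e-04). Of its 50-base stretches 2.95% also occur in other genes, mostly in the pseudogene *Trp53-ps*. *Mdm2* (chromosome 10, 117688875 to 117710758), whose product tags p53 for destruction and whose gene is switched on by p53, was at 127, 126 and 132 CPM in WT and at 197, 201 and 198 CPM in the knockout. Its replicates were among the tightest of the group, at 129 ± 3.23 and 199 ± 1.85 CPM, and the change was 1.54-fold (95% confidence interval 1.44 to 1.66, adjusted p = 7.29e-07). The groups stood far apart, and the log2 fold change stayed between 0.61 and 0.65 when any 1 library was left out.

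*Mdm4*, the partner of MDM2 that holds p53 inactive without destroying it, went the other way. It was at 324, 314 and 280.3 CPM in WT and at 261, 243 and 279.5 CPM in the knockout, so that the lowest WT library and the highest knockout library nearly touched. The log2 fold change was -0.23 (SE 0.06, adjusted p = 0.0120). The call was lost without WT replicate 1 (adjusted p = 0.0508), knockout replicate 1 (0.0511) or knockout replicate 2 (0.0747), and with the hepatocyte level as a covariate (0.0712), and 15.5% of the 50-base stretches of its exons also occur in the pseudogene *Mdm4-ps*.

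*Gtse1* encodes a microtubule-bound protein of G2 cells that ferries p53 out of the nucleus. Its level was 177, 163 and 191 CPM in WT and 256, 277 and 266 CPM in the knockout, without overlap, and the log2 fold change was 0.59 (SE 0.06, adjusted p = 8.46e-06). *Ppm1d*, the gene for the phosphatase WIP1 that strips activating phosphates from p53, rose from 31.2, 26.4 and 30.9 CPM to 39.8, 38.8 and 37.1 CPM, again without overlap (log2 fold change 0.39, SE 0.07, adjusted p = 6.08e-04). *Ccng1*, for cyclin G1, an adaptor that brings a phosphatase to MDM2, rose from 230.2 ± 12.98 to 268 ± 4.37 CPM (log2 fold change 0.22, adjusted p = 0.00419). All 5 feedback genes that rose hold a p53 decamer in the promoter window and *Mdm4* does not. Outside this group *Aen* and *Ckap2* rose with one, *Gadd45a* and *Polk* fell with one, and *Cdkn1a*, *Ei24* and *Sesn1* did not pass with one. With a window that held none, *Plk2*, *Plk3*, *Fbxw7*, *Pidd1*, *Phlda3* and *Epha2* rose and *Btg2* and *Bbc3* fell. Without a window, *Perp* and *Pmaip1* rose and *Xpc*, *Ddb2*, *Rrm2b* and *Pvt1* fell. The part of the motif in these changes was not tested.

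**Figure D2:**
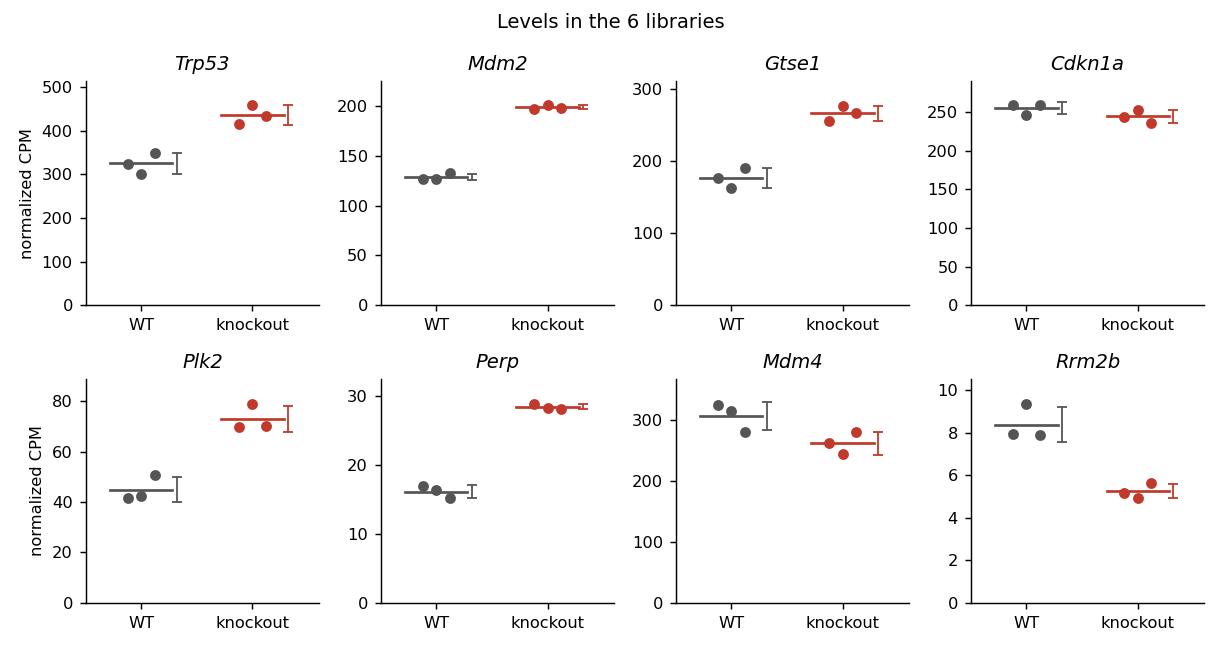
Each point is the TMM-normalized CPM of a gene in 1 of the 6 libraries, 3 of WT and 3 of *Bdh2*-knockout ASCs, with the mean as a horizontal line and the SD (n = 3) as a bar beside it. *Trp53*, *Mdm2*, *Gtse1*, *Plk2* and *Perp* are higher in every knockout library, *Rrm2b* is lower in every one, *Mdm4* nearly touches, and the points of *Cdkn1a* overlap.

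Ratios of 2 genes within a library do not depend on how the libraries were scaled. They were taken per base of the listed gene length, since the genes differ in length. For these genes the listed length is that of all exons merged, so a ratio is not a number of transcripts, and it is the change between genotypes that can be read. *Mdm4* per *Mdm2* was 0.819 ± 0.0802 (SD, n = 3) in WT ASCs and 0.452 ± 0.0346 in *Bdh2*-knockout ASCs. The knockout ratio was 0.551 times that of WT, and no library of one genotype fell within the range of the other (exact permutation test, two-sided, p = 0.1, the smallest that 3 against 3 libraries can give). *Mdm2* per *Trp53* went from 0.315 ± 0.0167 to 0.363 ± 0.0152, a smaller shift of 1.15 times (exact permutation p = 0.1). *Mdm4* per *Trp53* went from 0.259 ± 0.0352 to 0.164 ± 0.0172 (exact permutation p = 0.1). *Cdkn1a* per *Trp53* went from 0.894 ± 0.0445 to 0.639 ± 0.0256, or 0.714 times (exact permutation p = 0.1). For *Ppm1d* per *Trp53* the values of 0.116 ± 0.00592 and 0.113 ± 0.00799 did not differ beyond their spread (exact permutation p = 0.5). These are 5 ratios over shared genes, and with 3 against 3 libraries the exact permutation test cannot pass 0.05 for any of them. *Mdm4* was lower, and *Mdm2* and *Trp53* higher, in every knockout library. The separation of *Mdm4* per *Mdm2* and of *Mdm4* per *Trp53* follows from those levels and is no separate result.

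**Figure D3:**
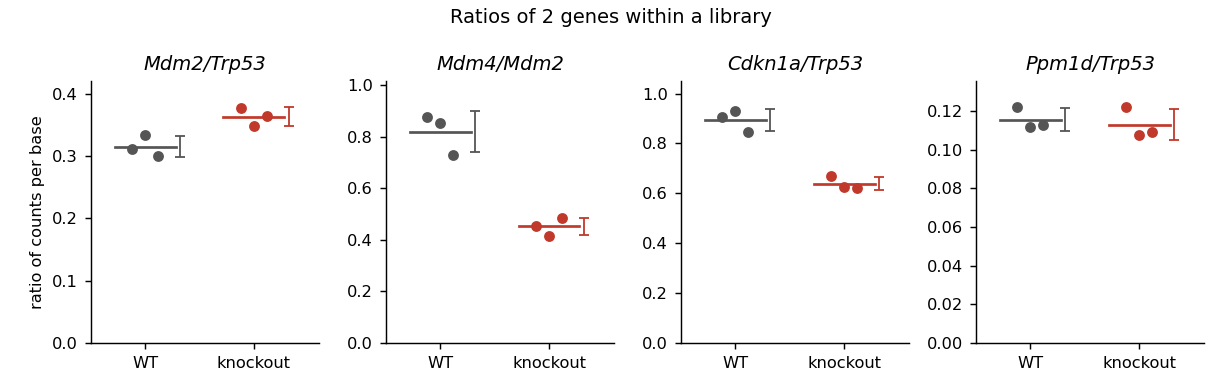
Ratios of counts per base of 2 genes within each library are plotted for WT and *Bdh2*-knockout ASCs, with points for the 6 libraries, lines for the means and bars for the SD (n = 3). *Mdm4* per *Mdm2* went from 0.819 to 0.452 and *Cdkn1a* per *Trp53* from 0.894 to 0.639, while *Ppm1d* per *Trp53* overlaps.

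Among the arrest genes, 4 rose, 2 fell and 2 did not pass the threshold, the median log2 fold change being 0.17. These counts are to be read against 21.0% of all tested genes called higher and 20.8% lower. *Cdkn1a* (chromosome 17, 29090976 to 29100727), for the cyclin-dependent kinase inhibitor p21 and the best known arrest target, was at 259, 246 and 259.6 CPM in WT and at 243, 253 and 236 CPM in the knockout. The groups overlapped. The fold change was 0.958 with a 95% confidence interval of 0.890 to 1.03 (adjusted p = 0.330). The upper bound was under the lower bounds of *Trp53* (1.22) and *Mdm2* (1.44). Opposite-strand exons of another gene cover 7.68% of the exon bases of *Cdkn1a*, and whether the counting used strand is not stated.

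The largest change of the group was that of *Plk2*, a polo-like kinase of centriole duplication and stress checkpoints. It was at 41.7, 42.5 and 50.6 CPM in WT and at 69.7, 78.8 and 70.3 CPM in the knockout, a fold change of 1.62 (95% confidence interval 1.45 to 1.81, adjusted p = 1.47e-05). Its relative *Plk3* also rose without overlap, from 18.3, 18.97 and 21.2 CPM to 26.5, 26.8 and 27.9 CPM (log2 fold change 0.47, SE 0.07). *Fbxw7*, the ubiquitin ligase subunit that clears cyclin E and MYC, and *Ckap2*, a spindle microtubule protein, rose by smaller amounts, with log2 fold changes of 0.25 in each (adjusted p = 0.00150 and 0.00253). *Psrc1*, another spindle protein, had a fold change of 1.07 (95% confidence interval 0.990 to 1.16) and did not pass.

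*Btg2*, an antiproliferative adaptor of mRNA decay, fell from 43.5, 49.5 and 49.7 CPM to 39.7, 39.3 and 37.9 CPM (log2 fold change -0.29, SE 0.06, adjusted p = 0.00186), without overlap. *Gadd45a*, a stress sensor that can inhibit the mitotic kinase CDK1, was at 48.7 ± 4.56 CPM in WT and 41.2 ± 3.34 CPM in the knockout (log2 fold change -0.24, adjusted p = 0.0192). Its groups overlapped, and the call was lost without WT replicate 2 (adjusted p = 0.0821), WT replicate 3 (0.0577), knockout replicate 2 (0.0962) or knockout replicate 3 (0.0730). Exons of another gene overlap 19.1% of its exon bases.

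Several of the feedback and arrest genes belong to the cell cycle in their own right, so cell cycle markers were read beside them. Of 12 genes of G2 and mitosis 9 rose and none fell by edgeR (DESeq2 also 9 and 0, and 1 lower at an unadjusted p under 0.05), and their summed level was 2387 to 2482 CPM in WT and 2878 to 2909 CPM in the knockout (exact permutation test, two-sided, p = 0.1). Of 12 S phase genes 6 rose by either tool, and their sum was 3049 to 3238 CPM in WT and 3390 to 3433 CPM in the knockout (exact permutation p = 0.1). Over all tested genes 21.0% were called higher and 20.8% lower. No marker of either list was at 0. The part of these shifts in the levels of *Gtse1*, *Ckap2*, *Plk2* and *Plk3* was not tested.

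Of the 12 death genes 5 rose, 1 fell and 6 did not pass, with a median log2 fold change of 0.04. *Perp* (chromosome 10, 18845020 to 18857073), a membrane protein of desmosomes that takes part in p53-dependent apoptosis, had the largest change of all 37 genes. It was at 16.9, 16.3 and 15.2 CPM in WT and at 28.9, 28.3 and 28.2 CPM in the knockout, a fold change of 1.77 (95% confidence interval 1.602 to 1.95, adjusted p = 1.27e-06). The libraries of each genotype lay close together and the groups were far apart. *Perp* is also a gene of epithelia, and the primitive endoderm markers given above rose in the same libraries; their part in the level of *Perp* was not tested.

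Next in size among the death genes was *Phlda3*, a repressor of AKT signaling, which went from 73.5, 66.1 and 74.1 CPM to 91.2, 99.2 and 93.9 CPM (log2 fold change 0.41, SE 0.06, adjusted p = 1.33e-04). *Aen*, a nuclease that acts on DNA in dying cells, went from 123, 111 and 122 CPM to 149.6, 165 and 152 CPM (log2 fold change 0.39, SE 0.06, adjusted p = 1.72e-04). Both were higher in every knockout library. *Pmaip1*, for the BH3-only protein NOXA, which frees the mitochondrial death pathway, went from 44.3, 46.2 and 44.8 CPM to 61.0, 57.2 and 52.9 CPM (log2 fold change 0.34, adjusted p = 5.19e-04). *Pidd1*, a scaffold on which a caspase is activated, went from 44.9, 40.9 and 44.4 CPM to 51.2, 56.0 and 54.7 CPM (log2 fold change 0.31, adjusted p = 7.12e-04). Neither gene overlapped between the genotypes.

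The other BH3-only gene, *Bbc3*, for PUMA, was lower. It was at 45.1 ± 1.17 CPM in WT and 39.8 ± 2.13 CPM in the knockout (log2 fold change -0.18, SE 0.06, adjusted p = 0.0195), a small shift whose call was lost without knockout replicate 1 (adjusted p = 0.115) or knockout replicate 2 (0.0844). The death receptor genes did not pass. *Tnfrsf10b*, for the receptor of TRAIL, had a log2 change of 0.0013 (adjusted p = 0.988), with 9.07% of its 50-base stretches found in other genes, and *Eda2r*, for the receptor of ectodysplasin A2, one of 0.02 (adjusted p = 0.792). *Fas* was close to silent, with 19 to 26 counts in a library, and its fold change had a 95% confidence interval of 0.589 to 1.35, so a difference of moderate size was not detectable at this depth. *Apaf1*, the scaffold of the apoptosome, had a fold change of 1.04 (95% confidence interval 0.952 to 1.15) and passed only without WT replicate 3 (adjusted p = 0.0369). *Ei24*, a membrane protein of the endoplasmic reticulum, had a fold change of 0.996 (0.921 to 1.08), with opposite-strand exons over 6.66% of its exon bases, and *Trp53inp1*, a stress protein that aids p53 and autophagy, one of 0.985 (0.893 to 1.09).

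All 4 repair genes were lower in *Bdh2*-knockout ASCs. Their median log2 fold change was -0.28, and 20.8% of all tested genes were called lower. *Rrm2b* (chromosome 15, 37923952 to 37961318), for the p53-inducible small subunit of ribonucleotide reductase, which supplies deoxynucleotides for repair, changed the most. It was at 7.93, 9.36 and 7.88 CPM in WT and at 5.19, 4.95 and 5.63 CPM in the knockout, without overlap, and the fold change was 0.627 (95% confidence interval 0.525 to 0.749, adjusted p = 6.13e-04). *Ddb2*, which finds ultraviolet damage in DNA, went from 10.2, 9.81 and 9.58 CPM to 8.17, 7.005 and 8.35 CPM (log2 fold change -0.33, SE 0.10, adjusted p = 0.0198). Opposite-strand exons of *Gm49085* cover 8.04% of the exon bases of *Rrm2b*, and 6.29% of its 50-base stretches also occur in *Gm8616*. Both genes are lowly expressed, with 135 to 199 counts of *Rrm2b* and 191 to 242 counts of *Ddb2* in a library.

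*Xpc*, whose protein opens nucleotide excision repair, fell from 33.3 ± 1.35 to 29.0 ± 0.698 CPM (log2 fold change -0.20, adjusted p = 0.0139). *Polk*, for a polymerase that copies past damaged bases, fell from 32.5 ± 2.12 to 27.6 ± 0.543 CPM (log2 fold change -0.24, adjusted p = 0.00865). The groups did not overlap in either. Of the 4 calls that of *Rrm2b* held under every setting tried. The call of *Ddb2* was lost without WT replicate 1 (adjusted p = 0.0544) or knockout replicate 2 (0.0930), that of *Xpc* without knockout replicate 1 (0.0700) or replicate 3 (0.0722), and that of *Polk* without knockout replicate 3 (0.0516) or with the hepatocyte covariate (0.162). Opposite-strand exons of *Acp2* cover 23.8% of the exon bases of *Ddb2*.

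Of the 7 genes of metabolism and other functions, 5 did not pass. The share called was 28.6%, under the 41.7% of all tested genes. *Pvt1*, a long noncoding RNA beside *Myc*, fell from 14.8, 13.6 and 11.8 CPM to 10.8, 8.18 and 9.26 CPM (log2 fold change -0.50, SE 0.12, adjusted p = 0.00374), without overlap. Other genes on the same strand overlap 4.87% of its exon bases. *Epha2*, a receptor tyrosine kinase for ephrins, rose from 600 ± 36.6 to 681 ± 10.4 CPM (log2 fold change 0.18, adjusted p = 0.0111), and its call was lost with scaling by library totals alone (adjusted p = 0.0596) and with the hepatocyte covariate (0.0683). *Tigar*, which turns glucose away from glycolysis, had a log2 change of 0.08 (adjusted p = 0.340), *Sesn1*, a leucine-sensing brake on mTOR, one of -0.06 (0.609), and *Dcxr*, a sugar reductase, one of 0.14 (0.182). *Zmat3*, an RNA-binding splicing factor, had 0.09 (0.222) and *Sulf2*, a heparan sulfate editing enzyme, had 0.11 (0.165), and both passed only without WT replicate 3 (adjusted p = 0.0276 and 0.0225).

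Per length, the 37 genes spanned a wide range of levels that both genotypes shared. In FPKM (CPM divided by the gene length in kilobases, computed from the listed lengths), *Epha2* was highest in WT ASCs at 128, followed by *Trp53* at 80.4, *Cdkn1a* at 71.7, *Ccng1* at 65.6 ± 3.70, *Gtse1* at 64.5 ± 5.01 and *Psrc1* at 57.5. The lowest were *Pvt1* at 1.92, *Rrm2b* at 0.919 and *Fas* at 0.549. In *Bdh2*-knockout ASCs *Epha2* was at 146, *Trp53* at 108, *Gtse1* at 97.1, *Ccng1* at 76.4 and *Cdkn1a* at 68.7, so that *Cdkn1a* came behind *Gtse1* and *Ccng1*. *Ccng1* and *Gtse1*, next to each other in WT, did not differ beyond their spread over libraries there.

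**Figure D4:**
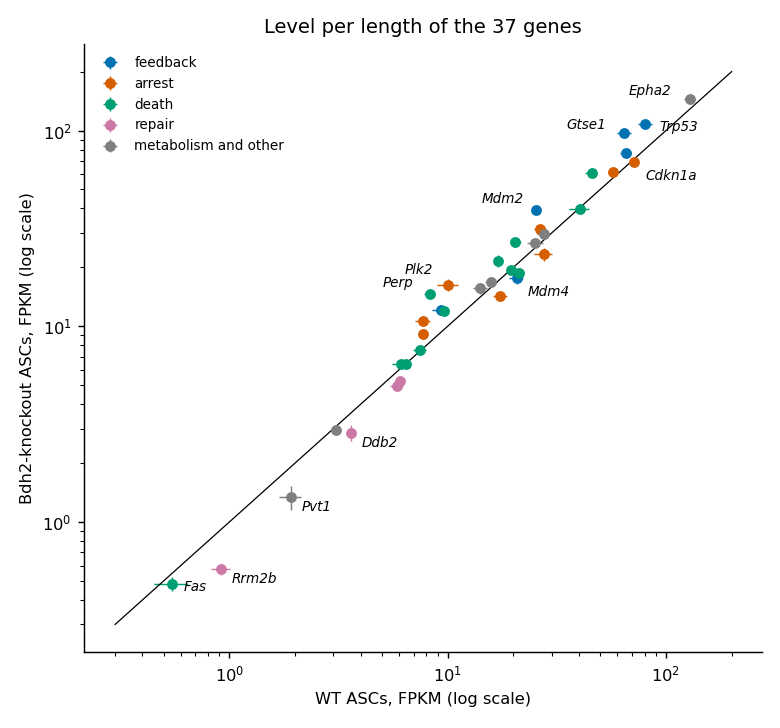
Mean FPKM of each of the 37 genes in WT ASCs (horizontal) and *Bdh2*-knockout ASCs (vertical) is plotted on log scales with SD bars (n = 3), coloured by role, and the line marks equal levels. From *Fas* at 0.549 to *Epha2* at 128 FPKM in WT the genes lie near the line, with *Perp*, *Plk2*, *Mdm2* and *Gtse1* above it and *Rrm2b*, *Ddb2* and *Pvt1* below it.

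Further genes of the pathway were read as counts. Of 29 regulators of p53 and its relatives, 28 were tested, 13 rose and 4 fell, at a median log2 fold change of 0.10. The largest rises were those of *Trp73*, the p53 relative p73, with a log2 fold change of 1.14, *Crebbp*, an acetyltransferase, with 0.75, and *Sirt1*, a deacetylase of p53, with 0.72. The largest falls were those of *Atr*, the replication stress kinase, with -0.36, and of the ribosomal protein genes *Rpl23* and *Rpl5*, with -0.28 and -0.20. Of 38 further p53 targets, 37 were tested, 15 rose and 7 fell, with a median of 0.05. *Crip2* (0.65), *Lif* (0.47), a cytokine that sustains mouse stem cells, and *Def6* (0.46) rose the most. *Gdf15*, a stress-induced secreted factor, fell by 0.93 on the log2 scale, *Trp53cor1*, the noncoding RNA next to *Cdkn1a*, by 0.76 (adjusted p = 0.0479) and *Cdkn1c*, for the inhibitor p57, by 0.76. The call of *Trp53cor1* rested on 21 to 42 counts in a library with overlapping groups, and it held in 2 of the 6 fits without 1 library and in 6 of 14 alternatives in all (adjusted p from 0.0275 to 0.171). The shares of the tested genes of this list, 40.5% higher and 18.9% lower, compare with 21.0% and 20.8% over all tested genes, and DESeq2 called 14 higher and 4 lower. For the regulators the shares were 46.4% higher and 14.3% lower, and DESeq2 called 12 higher and 4 lower.

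Under 15 other ways of analysing the counts, 9 of the 24 calls stood in every one. These were the rises of *Trp53*, *Mdm2*, *Gtse1*, *Plk2*, *Plk3*, *Perp*, *Aen* and *Phlda3* and the fall of *Rrm2b*. When the test asked for more than a 1.2-fold change, these 9 were the calls that were left of the 24, where 14.7% of all tested genes were called. By direction 8 of the 37 rose and 1 fell in that test, where 7.07% and 7.59% of all tested genes did. Leaving out any 1 library kept 18 of the 24. Without WT replicate 3, where 43.0% of tested genes were called (21.8% higher and 21.1% lower), *Apaf1*, *Sulf2* and *Zmat3* were added and *Gadd45a* was lost. Without knockout replicate 2, where 32.5% were called (17.0% higher and 15.6% lower), *Mdm4*, *Gadd45a*, *Bbc3* and *Ddb2* were lost. DESeq2 kept all 24 calls and called 36.4% of tested genes (19.5% higher and 17.0% lower). Without TMM, on library totals alone, 23 calls were kept, with 42.9% of tested genes called (16.3% higher and 26.6% lower), and the hepatocyte covariate kept 21, with 30.1% called (15.5% higher and 14.6% lower).

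**Figure D5:**
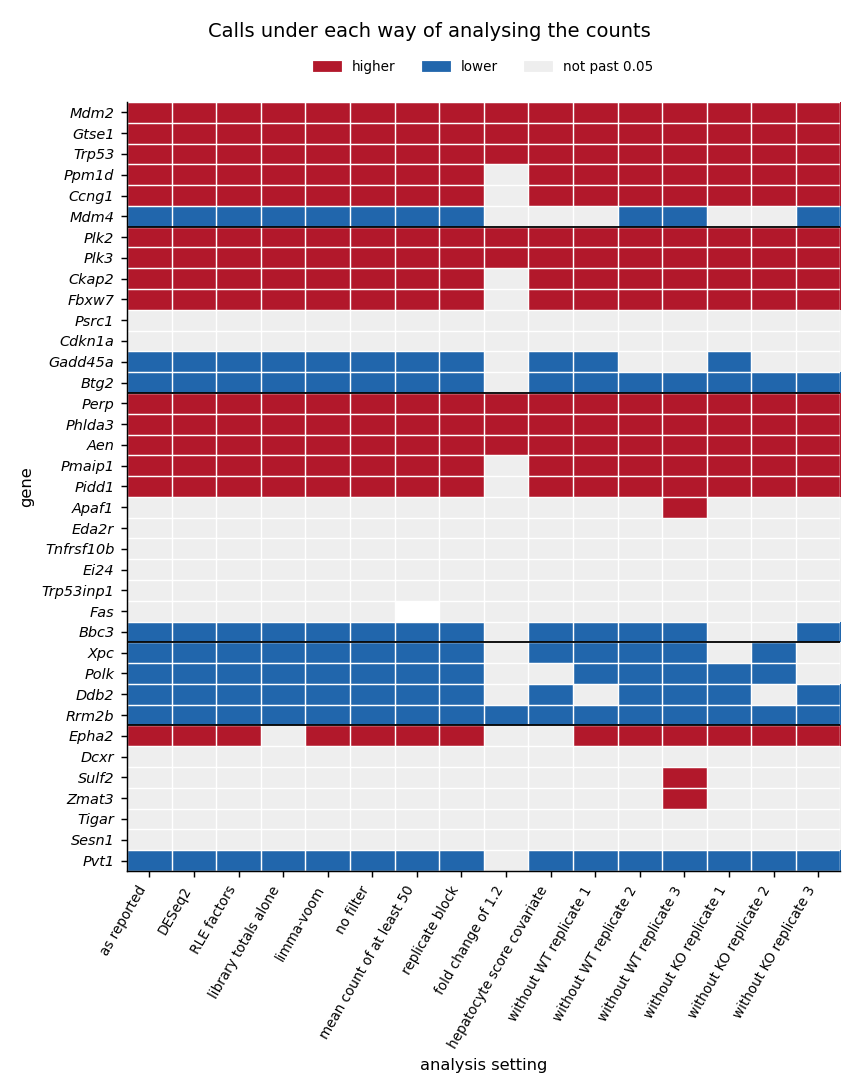
Rows are the 37 genes by role and columns are the analysis as reported and 15 alternatives, with red for higher and blue for lower in *Bdh2*-knockout ASCs at an adjusted p under 0.05 and grey for no call. The 9 genes called in every column include *Mdm2* and *Perp*, and the white cell is *Fas*, which had too few counts for the fit with a mean count of at least 50.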

How the data were processed

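RNA-seq of 3 WT and 3 *Bdh2*-knockout ASC libraries was analysed. The authors trimmed reads, mapped them to GRCm38 with HISAT2 (2.0.5 per the labels), counted them with FeatureCounts and deposited raw counts per gene with gene lengths and positions. Annotation release, strand and treatment of reads with several matches are not given in the sources used here. Overlapping genes and near-identical copies were therefore looked up in a GENCODE annotation of GRCm38, and the larger shares are given beside the genes. Its gene start and end equalled the listed ones for all members but *Fas* and *Pmaip1*.

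Counts were tested in R 4.3.3 with edgeR 4.0.16 (TMM, filterByExpr defaults, glmQLFit with glmQLFTest on genotype alone, adjusted by Benjamini-Hochberg over 16758 genes at 0.05), after the code was tested on simulated data. SEs were derived from the fitted F. DESeq2 1.42.0, limma 3.58.1 (voom), other scalings and filters, covariates and left-out libraries were alternatives. Single values over 3 against 3 libraries had an exact permutation test. The smallest level shown by 3 counts was 0.106 to 0.158 CPM. No pair of libraries of 1 genotype looked like 1 library deposited again (chi-square per gene 4.07 to 9.57), which does not show that they were separate cultures. The members, their role groups and the lists of further genes were chosen with earlier results of these data known. All 37 genes are named with their call, and values in every library are given for *Trp53*, *Mdm2*, *Cdkn1a* and called genes with a change of at least 1.2-fold, and beyond that rule for *Mdm4*. Promoter sequences are RefSeq's for GRCm38.p6. The search for adjacent decamers with mismatches was added after the data were seen.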

Additional observations from a re-analysis of the deposited data

How the results depend on the processing

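DESeq2, relative log expression factors, limma-voom, no filter and a mean count of at least 50 left all 24 calls in place. With library totals alone 14 members were higher and 9 lower, and the 1 rise among genes of metabolism and other functions was lost (0 left), while all tested genes split into 16.3% higher and 26.6% lower. A test against a 1.2-fold change called 2457 genes in place of 6996. It left 8 members higher and 1 lower, with 3 feedback genes higher and 0 lower, 2 arrest genes higher and 0 lower, 3 death genes higher and 0 lower, 1 repair gene lower, and 0 higher and 0 lower among metabolism and other. The hepatocyte covariate left 14 higher and 7 lower, with 0 feedback genes lower and 0 genes of metabolism and other higher. Leaving out 1 library gave 5613 to 7409 called genes, 15 to 18 members higher and 5 to 8 lower. By group it gave 5 to 5 feedback genes higher and 0 to 1 lower, 4 to 4 arrest genes higher and 1 to 2 lower, 5 to 6 death genes higher and 0 to 1 lower, 2 to 4 repair genes lower, and 1 to 3 genes of metabolism and other higher and 1 to 1 lower. The fewest lower calls, 5, came without knockout replicate 2. The replicate numbers did not pair the libraries, with correlations of -0.154, 0.0995 and 0.245 between equal numbers, and a replicate block called 6452 genes and left members at 15 higher and 9 lower. Log2 fold changes near 0 changed sign in genes that were not called. With the hepatocyte covariate these were *Fas* (0.0330), *Tnfrsf10b* (-0.0057), *Apaf1* (-0.0117), *Ei24* (0.0496) and *Trp53inp1* (0.0739), with library totals *Tnfrsf10b* (-0.0567) and *Eda2r* (-0.0360), with a mean count of at least 50 *Tnfrsf10b* (-0.0105) and with no filter *Ei24* (0.0098). Without 1 library, *Tnfrsf10b* ranged from -0.0242 to 0.0352, *Eda2r* from -0.0269 to 0.0759, *Ei24* from -0.0352 to 0.0325 and *Trp53inp1* from -0.0632 to 0.0677. The cause was not tested. A wider promoter window was not run, since no genome sequence was used here. Depth limits *Fas* most.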
